A study of Mus musculus with 18 samples.

Results

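The seminal vesicle secretory proteins are represented here by 8 genes, Svs1, Svs2, Svs3a, Svs3b, Svs4, Svs5, Svs6 and Pate4, which were chosen by name and found by matching the gene identifiers of the deposited tables to mouse gene symbols. All 8 were found among the 55469 genes listed. Their reads were followed in 18 libraries of total RNA from male mice, taken from the lateral and ventral lobes of the prostate. Every mouse was hemizygous for TRAMP, a transgene in which the probasin promoter drives the SV40 T antigens in prostate epithelium, on a background that the labels give as C56NL/6N. WT-TRAMP mice carried wild-type Elac2, the gene of an endonuclease that trims precursor tRNAs. KO-TRAMP mice had lost exon 8 of Elac2 through Pb-Cre, which is active in prostate epithelium, and A537T-TRAMP mice were homozygous in the whole body for the A537T substitution of ELAC2. There were 3 libraries for each line at each of the ages of 10 and 30 weeks. Libraries are called by the numbers in the table headers: WT-TRAMP has libraries 1 to 3 at 10 weeks and 10 to 12 at 30 weeks, A537T-TRAMP has 4 to 6 and 13 to 15, and KO-TRAMP has 7 to 9 and 16 to 18.

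The seminal vesicles are paired androgen-dependent glands beside the prostate that make most of the fluid of the ejaculate. In rodents a few small secretory proteins dominate this fluid. Several of them are cross-linked by the prostate transglutaminase TGM4 into the copulatory plug, and most belong to a fast-evolving gene family next to the protease inhibitor genes of the WFDC family. The labels state that the glands were cut away before the lobes were taken, so the reads of these genes are given library by library.

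Svs2 encodes the semenogelin-like main protein of the plug, and Svs3a and Svs3b encode further plug proteins. Svs4, Svs5 and Svs6 encode small secreted proteins of the same family. On GRCm38 these 6 genes fill the stretch chr2:164235929-164334396, which is 98468 bases long, and it holds 6 annotated genes, all of them from this family. Svs2 (ENSMUSG00000040132.6, chr2:164235929-164238466), Svs3b (ENSMUSG00000050383.5, chr2:164254363-164256640) and Svs4 (ENSMUSG00000016998.2, chr2:164275952-164278459) lie on the minus strand. Svs3a (ENSMUSG00000017003.7, chr2:164289268-164291500), Svs6 (ENSMUSG00000017000.2, chr2:164316751-164318453) and Svs5 (ENSMUSG00000017004.7, chr2:164332740-164334396) lie on the plus strand. The other two genes are unlinked to this cluster. Svs1 (ENSMUSG00000039215.5, chr6:48986861-48991722, plus strand) encodes a protein related to the copper amine oxidases, and Pate4 (ENSMUSG00000032099.3, chr9:35607093-35611941, minus strand) encodes SVS7, a small protein of the Ly6 type.

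Sequence before the transcription start is shown for 5 genes of the cluster because 2 of them, Svs5 and Svs6, have almost the same promoter and very different read counts. The sequences are the 250 bases before the RefSeq start on GRCm38.p6, read 5′ to 3′ on the gene's strand. Capitals mark matches on either strand to 4 motifs. TATAAA is the core of a TATA box. AGAACA is 1 arm of an androgen receptor site. GATAA is the core bound by GATA factors. The element TGCCTTTT was picked after these sequences had been read. The windows are chr2:164332515-164332764 for Svs5, chr2:164316501-164316750 for Svs6, chr2:164289017-164289266 for Svs3a, chr2:164278308-164278557 for Svs4 and chr2:164238342-164238591 for Svs2.
Svs5: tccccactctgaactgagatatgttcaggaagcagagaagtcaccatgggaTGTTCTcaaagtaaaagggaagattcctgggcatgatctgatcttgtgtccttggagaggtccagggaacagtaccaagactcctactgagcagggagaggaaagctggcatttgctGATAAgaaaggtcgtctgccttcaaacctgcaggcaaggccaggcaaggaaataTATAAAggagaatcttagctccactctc
Svs6: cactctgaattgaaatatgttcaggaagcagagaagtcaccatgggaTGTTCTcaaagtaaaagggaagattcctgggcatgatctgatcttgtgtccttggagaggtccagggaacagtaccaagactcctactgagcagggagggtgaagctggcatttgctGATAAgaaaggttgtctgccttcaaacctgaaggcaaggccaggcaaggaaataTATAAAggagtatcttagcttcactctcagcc
Svs3a: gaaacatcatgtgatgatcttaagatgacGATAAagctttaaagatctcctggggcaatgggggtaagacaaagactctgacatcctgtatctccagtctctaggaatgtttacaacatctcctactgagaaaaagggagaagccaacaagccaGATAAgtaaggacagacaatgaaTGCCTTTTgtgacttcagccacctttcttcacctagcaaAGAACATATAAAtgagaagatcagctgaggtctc
Svs4: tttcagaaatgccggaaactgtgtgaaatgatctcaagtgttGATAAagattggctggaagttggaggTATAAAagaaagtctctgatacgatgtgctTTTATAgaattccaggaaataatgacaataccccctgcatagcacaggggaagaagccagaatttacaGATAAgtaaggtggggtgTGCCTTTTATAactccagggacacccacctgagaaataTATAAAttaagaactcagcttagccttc
Svs2: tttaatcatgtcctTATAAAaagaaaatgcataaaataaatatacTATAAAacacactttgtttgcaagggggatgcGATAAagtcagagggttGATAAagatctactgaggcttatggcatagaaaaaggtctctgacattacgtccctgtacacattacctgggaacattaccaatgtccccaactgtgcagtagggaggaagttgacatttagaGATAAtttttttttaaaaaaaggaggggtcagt

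The windows of Svs5 and Svs6 were identical in 93.3% of 254 aligned columns, and those of Svs3a and Svs3b in 97.6% of 250. All other pairs had between 46.3% and 58.6%. TATAAA stood on the gene's strand within 40 bases of the start in 5 of the 7 genes with a window (Svs3a, Svs3b, Svs4, Svs5 and Svs6), against 2.31% of 32851 promoter windows of the same length. Its first base lay 28 bases before the start in Svs3a, Svs3b, Svs4 and Svs5 and 32 bases before it in Svs6. AGAACA occurred in 5 of the 7 windows (Svs1, Svs3a, Svs3b, Svs5 and Svs6), against 16.1% of all windows on either strand. In Svs3a and Svs3b it directly adjoined TATAAA, and in Svs5 and Svs6 it lay on the other strand, 199 and 203 bases before the start. TGCCTTTT occurred in 3 windows (Svs3a, Svs3b and Svs4; 1.58% of all windows), in Svs4 overlapping a reverse TATAAA match. GATAA occurred in 7 of the 7 windows, against 22.6% of all. The annotation used for the coordinates starts Svs2, Svs4 and Svs5 inside the windows shown, and distances are counted from the RefSeq start. Near-copies are counted as separate windows here, and TGCCTTTT was picked from these windows, so the shares of all windows are a description and no test. Matches are letters in a window and were not tested as binding sites.

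**Figure D1:**
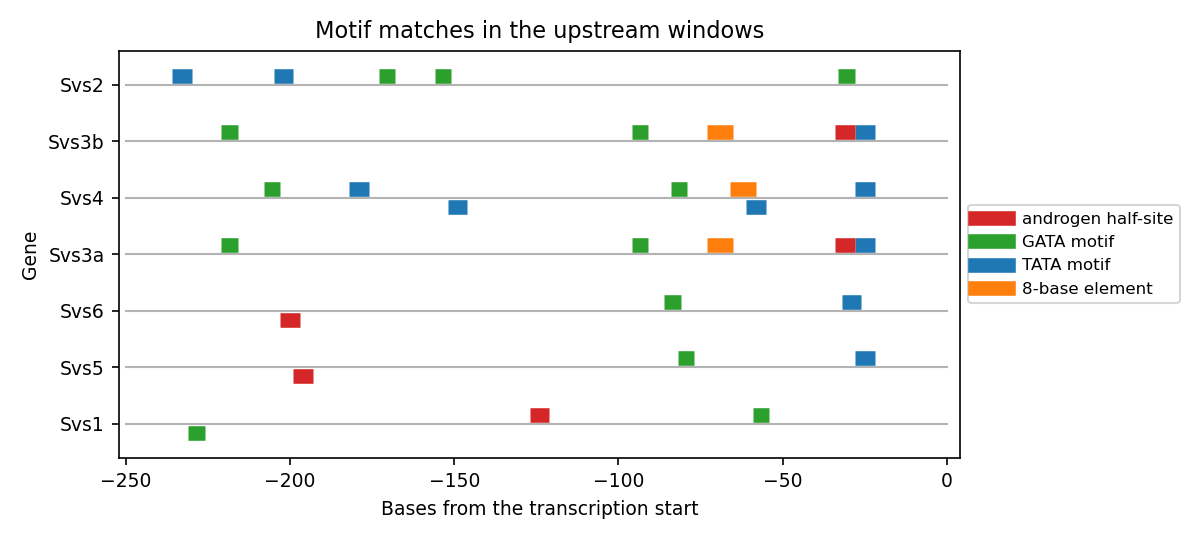
Position of the motif matches in the 250 bases before the RefSeq start of 7 genes, with matches on the gene's strand above each line and matches on the other strand below it. Svs5 and Svs6 share their layout, as do Svs3a and Svs3b, and 5 genes have a TATA motif within 40 bases of the start.

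The libraries held between 9380174 and 14830104 reads recovered from the normalized counts. Pbsn and Sbp, genes of prostate secretions, were measured in every library at 3.91 to 180.1 and 424 to 28895 RPM (reads per 1000000 reads of the library). Other prostate genes followed different orders. Msmb and Defb50 were lowest in library 1, at 12.6 and 55.8 RPM, where Sbp had 22547. Tgm4 ran from 2.43 to 515 RPM. The lobe make-up of the libraries was not tested. Elac2 had 254 to 301 normalized counts in KO-TRAMP against 289 to 359 in WT-TRAMP at 10 weeks and 249 to 267 against 251 to 319.6 at 30 weeks, and the ranges overlapped at both ages. A pair of libraries stood apart from the rest in another way. Over 6505 genes, library 18 lay close to 0.371 times library 16 plus 0.418 times library 17. Of 243 genes that differed over 4-fold between libraries 16 and 17, 97.1% were within 1.2-fold of this sum in library 18. Library 12 lay close to 0.439 times library 10 plus 0.456 times library 11, with 84.2% of 38 such genes within 1.2-fold. For each of the other 16 libraries the closest sum of any pair of libraries placed at most 46.2% of such genes within 1.2-fold. The reads of the 8 genes in library 12 were 0.771 to 1.13 times its sum, and those in library 18 were 0.901 to 1.04 times. Whether libraries 12 and 18 are separate mice was not tested, and the 30-week KO-TRAMP fold changes and the spread of the ratios are also given without them.

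The summed reads of the 8 genes spanned 85166-fold over the 18 libraries, from 0.000106% of the reads in library 11 to 9.05% in library 5. Shares are given with exact (Clopper-Pearson) 95% intervals, which cover counting error only. At 10 weeks the WT-TRAMP libraries held 24, 20 and 49 such reads, or 0.000183% (0.000117 to 0.000273), 0.000213% (0.00013 to 0.000329) and 0.000459% (0.00034 to 0.000607). The KO-TRAMP libraries held 0.000906% in library 7 (0.000745 to 0.00109), 0.0522% in library 8 (0.0509 to 0.0535) and 1.63% in library 9 (1.62 to 1.64). The A537T-TRAMP libraries held 0.0487% in library 4 (0.0475 to 0.05), 9.05% in library 5 (9.03 to 9.07) and 1.25% in library 6 (1.24 to 1.25). All mutant libraries thus lay above all WT-TRAMP libraries at this age, and libraries of the same line differed far beyond their counting intervals.

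At 30 weeks the WT-TRAMP libraries held 4.35% (4.34 to 4.37) in library 10, 0.000106% (5.66e-05 to 0.000182) in library 11 and 1.9% (1.89 to 1.91) in library 12. The KO-TRAMP libraries held 0.266% (0.263 to 0.269) in library 16, 0.000695% (0.000567 to 0.000842) in library 17 and 0.106% (0.104 to 0.108) in library 18. The A537T-TRAMP libraries held 5.45% (5.44 to 5.46) in library 13, 0.000313% (0.000211 to 0.000446) in library 14 and 2.65% (2.64 to 2.66) in library 15. Each group at this age therefore had 1 library with at most 103 reads of the 8 genes and 2 libraries with at least 11056, and the groups overlapped. Without libraries 12 and 18, WT-TRAMP and KO-TRAMP each had 1 library at 103 or fewer and 1 at 29845 or more. Over all ages 11 libraries held 6062 reads or more and 7 held 111 or fewer, with none in between. In whole tissue, fewer cells of a type and less RNA per cell cannot be told apart.

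**Figure D2:**
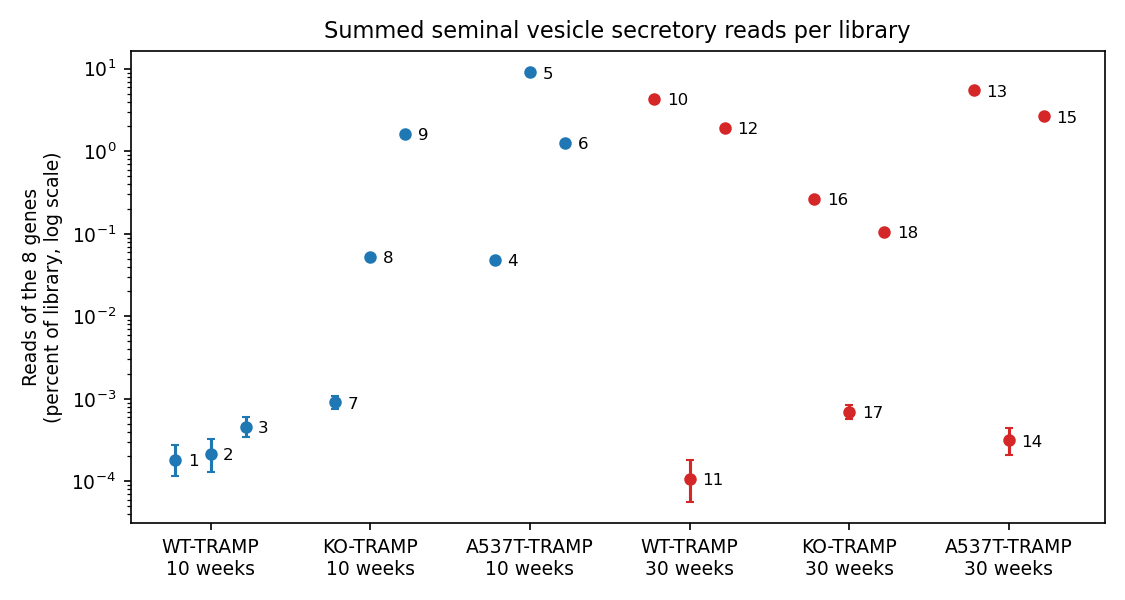
Reads of the 8 genes as a percent of all reads of each library (log scale), with exact 95% intervals and the library number beside each point, for the 6 groups of 3 libraries. The 10-week WT-TRAMP libraries are at 0.000459% or less, and each 30-week group holds 1 library below 0.001% and 2 above 0.1%.

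Svs2 had the most reads. In 10-week WT-TRAMP libraries 1 to 3 it had 0.305, 0.107 and 0.75 RPM. It had 3.26, 74.4 and 9402 in KO-TRAMP libraries 7 to 9 and 283, 54639 and 1306 in A537T-TRAMP libraries 4 to 6. Neither mutant group overlapped the wild type, as was so upwards for 5.77% of the genes tested in KO-TRAMP and 6.92% in A537T-TRAMP. The wild type had only 4, 1 and 8 reads of Svs2, and KO-TRAMP library 7 had 40. Within each mutant group the lowest and highest libraries lay over 100-fold apart. At 30 weeks it had 25218, 0.163 and 11075 RPM in WT-TRAMP, 489.9, 1.89 and 189.8 in KO-TRAMP, and 32786, 0.521 and 16933 in A537T-TRAMP. The middle value of each triplet is the library with few reads of all 8 genes.

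Svs5 was also highest in library 5, but library 6 came before library 9. At 10 weeks it had 0.458, 0.746 and 1.22 RPM in WT-TRAMP, 2.78, 204 and 3898 in KO-TRAMP, and 116, 20184 and 4453 in A537T-TRAMP. At 30 weeks it had 10464, 0.327 and 4469 in WT-TRAMP, 882, 2.16 and 362 in KO-TRAMP, and 13336, 0.73 and 5566 in A537T-TRAMP. The KO-TRAMP libraries with many such reads, 16 and 18, were below libraries 10, 12, 13 and 15 for this gene.

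Pate4, the unlinked gene on chromosome 9, moved with Svs2. At 10 weeks it had 0.305, 0.107 and 0.0937 RPM in WT-TRAMP, 0.653, 49.2 and 2011 in KO-TRAMP, and 73.4, 13143 and 723 in A537T-TRAMP. At 30 weeks it had 6045, 0.0817 and 2643 in WT-TRAMP, 108, 0.405 and 41.1 in KO-TRAMP, and 7084, 0.521 and 3638 in A537T-TRAMP. Libraries 16 and 18 were again below libraries 10, 12, 13 and 15.

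Svs4 was highest in a different library. At 10 weeks it had 0.611, 1.17 and 2.34 RPM in WT-TRAMP, 1.96, 193 and 886 in KO-TRAMP, and 13.6, 2069.7 and 4556 in A537T-TRAMP, where library 6 exceeded library 5. At 30 weeks it had 1642, 0.245 and 748 in WT-TRAMP, 727, 1.28 and 289 in KO-TRAMP, and 1134, 0.625 and 301 in A537T-TRAMP. For this gene libraries 16 and 18 lay within the range of libraries 10, 12, 13 and 15 or just below it.

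The other 4 genes had fewer reads, and all had their highest value in library 6. Svs1 reached 766 RPM there, 192 in library 16 and at most 159.7 elsewhere. Svs6 reached 250.3, Svs3a 247 and Svs3b 166. In the 7 libraries with few reads, each of these genes had at most 8 reads, and Svs3a had 0 reads in all 3 WT-TRAMP libraries at 10 weeks. Set against a floor of 3 reads over that group, Svs3a was at least 1053-fold higher in A537T-TRAMP and at least 46.4-fold higher in KO-TRAMP at 10 weeks. Single libraries set these bounds, since library 9 held 149 of the 151 KO-TRAMP reads, with 1 read each in libraries 7 and 8 and no bound without it, and library 6 held 2339 of the 3210 A537T-TRAMP reads, with 868 in library 5 and 3 in library 4.

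**Figure D3:**
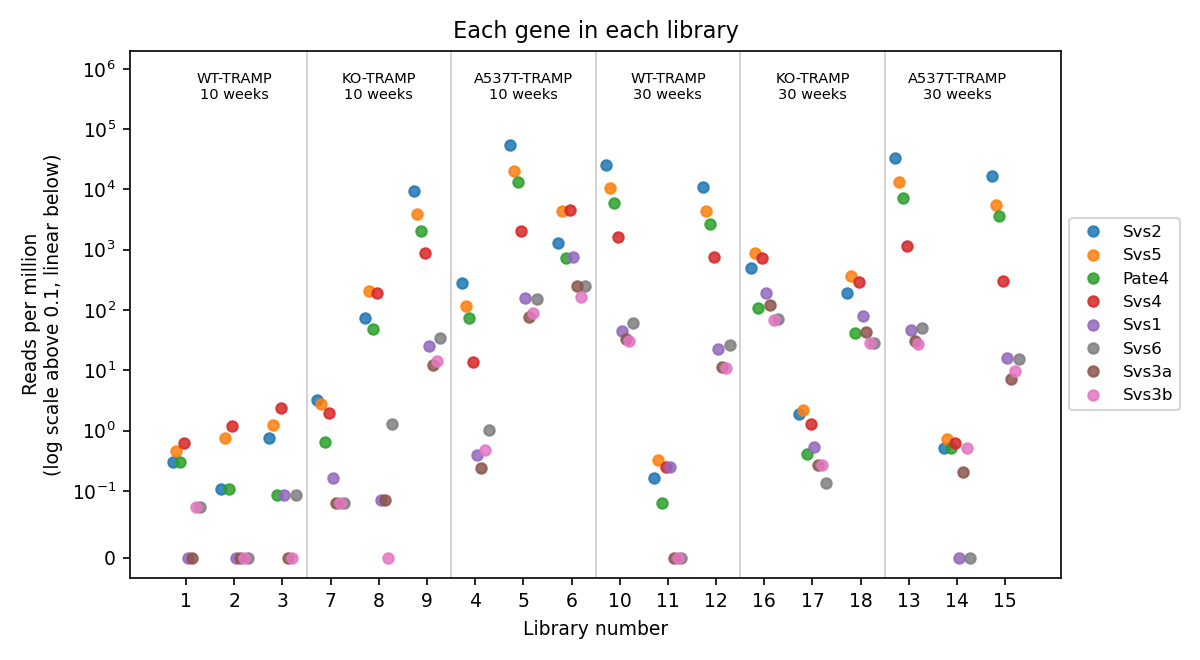
Level of each gene in each library in RPM, ordered by group, on an axis that is logarithmic above 0.1 and linear below it; points of a library are spread sideways. All 8 genes are high or low together in most libraries, Svs2 is on top in libraries 4, 5, 7, 9, 10, 12, 13 and 15, and Svs4 and Svs5 are on top in libraries 6, 8, 16 and 18.

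The comparison of KO-TRAMP with WT-TRAMP at 10 weeks asked whether loss of Elac2 in prostate epithelium changed these transcripts. A log2 fold change here is a difference of group means of log2(normalized count + 1), given with its standard error (SE). The adjusted p is that of limma, by Benjamini-Hochberg over all genes tested. All 8 genes passed the minimum mean of 10, but in WT-TRAMP only Svs4 reached it (16.1), and the others had means of 0 to 9.44. Those passed through the KO-TRAMP libraries, some through a single library, and such a filter favours genes high in the mutant group. Svs2 had a log2 fold change of 8.32 (SE 2.40), Pate4 of 7.40 (SE 2.36), Svs5 of 7.23 (SE 2.16) and Svs4 of 5.71 (SE 1.91), each with an adjusted p of 0.716. The other 4 genes had log2 fold changes from 2.44 (Svs3b) to 3.83 (Svs6), with adjusted p-values from 0.742 to 0.85. Of the 8 genes 0 passed the threshold of 0.05 (4 had an unadjusted p under 0.05), where 0.0129% of the 15451 genes tested passed. For 4 genes (Svs2, Svs3a, Svs5 and Pate4) all KO-TRAMP libraries were above all WT-TRAMP libraries, as were 5.77% of the genes tested, and for 0 they were all below (6.26% of the genes tested). Without library 7 the limma count was 1 of the 8 (0.0193% of all genes). The median log2 fold change of the 8 genes was 4.77, and that of all genes was −0.01. On recovered reads edgeR called 0 of the 8 and 0% of all genes, while DESeq2 called 2, Svs4 (adjusted p 0.00114) and Svs5 (adjusted p 2.82e-05), and 0.537% of all genes, and gave no adjusted p for 5 of the 8.

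In A537T-TRAMP at 10 weeks the differences were larger and no member overlapped between the groups. Svs2 had a log2 fold change of 12.78 with an SE of 1.80 and Pate4 of 11.89 with an SE of 1.70, both at an adjusted p of 0.458 by limma, and Svs5 had 11.40 with an SE of 1.73 at 0.566. The other 5 genes had log2 fold changes from 7.56 (Svs3b) to 8.68 (Svs4), each with a limma adjusted p of 0.6. With all libraries 0 of the 8 passed (8 had an unadjusted p under 0.05), where 0.00648% of 15438 genes passed. All 8 genes were higher in every A537T-TRAMP library than in every WT-TRAMP library, against 6.92% of the genes tested, and 0 were lower in every one (6.53% of the genes tested). Their median log2 fold change was 8.57, beside −0.01 over all genes. In WT-TRAMP only Svs4 reached the minimum mean of 10 (14.8), and the others had means of 0 to 8.67. Those passed only through the A537T-TRAMP libraries, which favours separation upwards, so the share and the median are no test of these genes. DESeq2 called 7 of the 8 (0.959% of all genes) with no adjusted p for Svs2, and edgeR called 0 (0% of all genes). Library 4, the A537T-TRAMP library with the fewest reads of these genes, decided the limma count, which was 8 without it (0.42% of all genes) and 1 without library 5 (0.0131% of all genes).

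Lists of other tissues were summed in the same 10-week libraries, and 0 of their smooth muscle and prostate genes passed the limma threshold in either line. The 10 smooth muscle genes summed to 1114 to 2571 RPM in A537T-TRAMP and 842 to 1294 in KO-TRAMP, against 453 to 739 in WT-TRAMP. The 9 prostate secretory and luminal genes summed to 2107 to 30773 in A537T-TRAMP and 12225 to 13329 in KO-TRAMP, against 21004 to 27085, and the A537T-TRAMP range spanned that of the wild type. Most of this sum was Sbp, with 22547 RPM in library 1 and 424 in library 5, the lowest library. The median log2 fold change of the 9 genes was 0.34 in KO-TRAMP and 0.51 in A537T-TRAMP, opposite to the lower sum of KO-TRAMP. The bladder urothelium genes summed to 129 to 286 RPM in A537T-TRAMP and 197 to 250.2 in KO-TRAMP, against 119 to 185. Vas deferens and epididymis genes summed to 1.89 to 346 and 0.163 to 56.9, against 0.153 to 0.213. Sums of the adipose, skeletal muscle and neuroendocrine genes overlapped with WT-TRAMP in both lines. The part of these differences in tissue make-up in the values of the 8 genes was not tested.

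At 30 weeks no member was separated between the lines. In KO-TRAMP log2 fold changes ran from −3.48 (Pate4, SE 4.35, limma adjusted p 0.688) and −2.92 (Svs2, SE 4.73, limma adjusted p 0.759) to 1.89 (Svs3a, SE 2.98, limma adjusted p 0.752). Of the 8 genes 0 passed (0 had an unadjusted p under 0.05), where 0.213% of 16900 genes passed. For 0 of the 8 were all KO-TRAMP libraries above (10.8% of all genes) or below (9.48%) all WT-TRAMP libraries. Without libraries 12 and 18, where 0 of 16889 genes passed, log2 fold changes were −2.16 for Pate4, −1.40 for Svs2 and 0.39 for Svs4, which with all libraries had −0.23. In A537T-TRAMP log2 fold changes ran from −0.71 (Svs1, SE 2.66) to 0.91 (Pate4, SE 4.85), with limma adjusted p-values from 0.956 to 0.997. There 0 of the 8 passed (0 had an unadjusted p under 0.05), where 0% of 16261 genes passed, and 0 were separated upwards (7.36% of all genes) or downwards (6.03%). Without library 12, where 0 of 16224 genes passed, log2 fold changes were 3.20 for Svs2 and 3.03 for Pate4. In the number of the 8 called, edgeR and DESeq2 differed from limma only in the 10-week DESeq2 counts given above. Both called 0 of the 8 at 30 weeks (edgeR 0.0888% and 0% of all genes, DESeq2 4.76% and 1.02%, in KO-TRAMP and A537T-TRAMP). Their fold changes could differ more, and for Svs2 in 30-week KO-TRAMP the log2 fold change was −5.75 with edgeR and −5.76 with DESeq2. In 30-week KO-TRAMP the 6 neuroendocrine genes summed to 0.356 to 1300.3 RPM, highest in library 17, where the 8 genes had 103 reads, and the part of this in their values was not tested. The SE of Svs2 reached 5.49 in A537T-TRAMP at 30 weeks.

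The ratios between the genes fell into distinct profiles. They are given for the 11 libraries with at least 1000 reads of the 8 genes, as percentages of those reads. Svs2 took 58%, 60.4%, 57.7%, 57.9%, 58.3%, 60.2% and 63.9% in libraries 4, 5, 9, 10, 12, 13 and 15. It took 10.5%, 14.3%, 18.4% and 17.9% in libraries 6, 8, 16 and 18. No library lay between 18.4% and 57.7%. Of the first 7 libraries, library 4 held 0.0487% of all reads and the rest held 1.63% to 9.05%. The other 4 libraries held 0.0522% to 1.25%, so apart from library 4 the first profile had the higher shares. A link between profile and share was not tested.

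Svs4 took the place of Svs2 in the second profile. It made up 1.14% to 5.44% in the 7 libraries rich in Svs2 and 36.5%, 36.9%, 27.4% and 27.3% in libraries 6, 8, 16 and 18. The ratio of Svs2 to Svs4 reads was 10.6 to 56.2 in the former and 0.287, 0.387, 0.674 and 0.656 in the latter. Svs5 took 21% to 24.5% in the 7 libraries and 33.2% to 39.1% in the 4. Pate4 took 12.3% to 15.1% in the 7 libraries and 5.8%, 9.44%, 4.07% and 3.87% in libraries 6, 8, 16 and 18.

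Svs1, Svs3a, Svs3b and Svs6 divided the 4 libraries further. Svs1 took 6.14%, 7.23% and 7.52% in libraries 6, 16 and 18 but 0.0165%, a single read, in library 8, and 0.0611% to 0.177% in the other 7. Svs3a and Svs3b together took 3.31%, 7.03% and 6.72% in libraries 6, 16 and 18, 0.0165% in library 8 and 0.0638% to 0.181% in the other 7. Svs6 took 2.01%, 2.62% and 2.64% in libraries 6, 16 and 18, 0.247% in library 8 and 0.057% to 0.211% in the other 7. Library 8 therefore combined the high Svs4 of the second profile with the low Svs1, Svs3a, Svs3b and Svs6 of the first. Libraries 12 and 18 had profiles close to those of libraries 10 and 16, and the second profile with high Svs1 rests on libraries 6 and 16 without library 18.

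**Figure D4:**
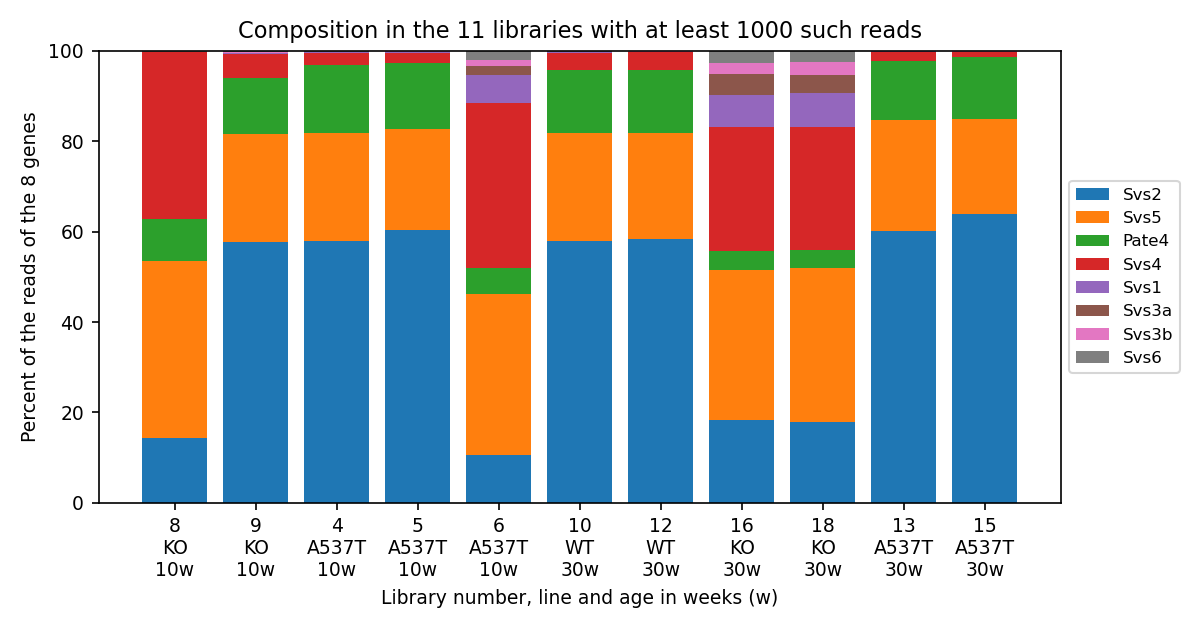
Percent of the summed reads of the 8 genes that each gene took, in the 11 libraries with at least 1000 such reads. Svs2 takes 57.7% to 63.9% in 7 libraries and 10.5% to 18.4% in libraries 6, 8, 16 and 18, where Svs4 takes 27.3% to 36.9%.

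At 10 weeks libraries of the same mutant line differed in profile, and at 30 weeks A537T-TRAMP libraries 13 and 15 did not. For KO-TRAMP at 30 weeks this cannot be judged, because library 18 lay close to a weighted sum that includes library 16. Among 10-week A537T-TRAMP libraries, 4 and 5 had the first and 6 the second, and among 10-week KO-TRAMP libraries 9 had the first and 8 was rich in Svs4. At 30 weeks WT-TRAMP libraries 10 and 12 and A537T-TRAMP libraries 13 and 15 had the first profile, and KO-TRAMP libraries 16 and 18 the second with high Svs1. With libraries 12 and 18 set aside, 1 WT-TRAMP, 2 A537T-TRAMP and 1 KO-TRAMP library represent 30 weeks, so no test of the profile between lines was made. The SD over libraries of log2(gene reads / reads of the other 7 genes) was 0.45 for Svs5, 0.82 for Pate4 and 1.57 for Svs2, then 2.00 for Svs6, 2.13 for Svs4, 2.71 for Svs3b, 2.88 for Svs3a and 3.08 for Svs1. Without libraries 12 and 18 these SDs were 0.46 for Svs5 and 2.94 for Svs1.

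Svs5 and Svs6, whose promoter windows are printed above, differed in both level and ratio. Svs5 had 113 to 369 reads per Svs6 read in the 7 libraries rich in Svs2 and 158 in library 8, but 17.8, 12.7 and 12.9 in libraries 6, 16 and 18. Their transcripts shared 3 words of 31 bases, 0.467% of those of Svs5, so their reads are told apart. Svs3a and Svs3b shared 52% and 51.2% of such words with each other, so the split of reads between them is uncertain. As deposited, Svs3a had 1.49, 1.74 and 1.51 reads per Svs3b read in libraries 6, 16 and 18 and 0.731 to 1.15 in libraries 5, 9, 10, 12, 13 and 15, where each gene had at least 79 reads.

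Per kilobase of the longest transcript, Svs5 was the highest gene in 9 of the 11 libraries and Svs2 in libraries 5 and 15. Svs5 and Svs2 were close in library 5, at 32139 and 32235 RPM per kilobase, and in library 4, at 184 and 167. In libraries 4, 5, 9, 10, 12, 13 and 15 Pate4 followed, then Svs4 and Svs6. In libraries 6, 8, 16 and 18 Svs4 came second, at 6233 against 7091 for Svs5 in library 6 and 263 against 325 in library 8. Svs1, Svs3a and Svs3b were the lowest 3 genes in all 11 libraries, and their order among themselves differed between libraries.

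Of 7 other genes known from the seminal vesicle, Sva, Ceacam10 and Spinkl were high in libraries 6, 16 and 18. Sva, which encodes a seminal vesicle autoantigen, had 9.59, 6.94 and 7.42 reads per 1000 reads of the 8 genes in libraries 6, 16 and 18, 0 in libraries 4 and 8, and 0.171 to 0.27 in the other 6. Ceacam10, a secreted member of the carcinoembryonic antigen family, had 16.8, 39.2 and 42.1 in libraries 6, 16 and 18, 2.47 in library 8 and at most 0.374 in the rest. Spinkl, a serine protease inhibitor-like secretory protein, had 24.4, 28.4, 14.1 and 13.1 in libraries 6, 8, 16 and 18 and at most 0.53 in the rest. Spinkl was thus high in all libraries where Svs4 was high. Sva and Ceacam10 were high in libraries 6, 16 and 18 but not in library 8, as were Svs1, Svs3a, Svs3b and Svs6. The uncharacterised gene 9530003J23Rik had 4.71, 8.98 and 11.2 in libraries 6, 16 and 18, 0.99 in library 8 and 1.13 to 3.58 in the rest. It also had 146 reads in library 14, which held 30 reads of the 8 genes. Pax2 and Pax8, transcription factors of the Wolffian duct, had at most 140 and 66 reads in any library and did not divide the libraries this way. Spink1 had 33100 reads in library 1, which held 24 reads of the 8 genes, and 569 in library 5, which held the most.

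Of the genes of the vas deferens and epididymis, Akr1b7 and Crisp1 were lowest in libraries 6, 16 and 18. Akr1b7, an aldo-keto reductase first known as the mouse vas deferens protein, had 10.3, 10.1, 9.45 and 15.1 reads per 1000 reads of the 8 genes in libraries 10, 12, 13 and 15. It had 0.572 to 1.28 in libraries 4, 5, 8 and 9 and 0.212, 0 and 0.271 in libraries 6, 16 and 18. Crisp1, a secreted epididymal protein, had 7.54, 7.15, 5.66 and 8.26 in libraries 10, 12, 13 and 15, 2.15 to 3.17 in libraries 4, 5 and 9, 0.495 in library 8, and 0.153, 0 and 0 in libraries 6, 16 and 18. Lcn5 and Lcn8, markers of the epididymis proper, had at most 1 read in any library, and Adam7 had at most 12. Spink11 had 0.771 reads per 1000 reads of the 8 genes in library 16, 0.238 in library 6 and 0.0663 to 0.14 in libraries 5, 9, 10, 12, 13 and 15, so it did not share the pattern of Akr1b7 and Crisp1. Whether the profiles reflect different glands or a different state of 1 gland was not tested.

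The genes around the cluster on chromosome 2 did not share its range. Sdc4, a heparan sulfate proteoglycan, stayed between 89.9 and 302 RPM, and Wfdc12, Matn4 and Slpi at most reached 4.38, 8.04 and 2.76. Wfdc15a had 0 reads in all libraries, and Rbpjl and Wfdc5 at most 3. Wfdc15b, a protease inhibitor gene, had 0 to 4 reads in libraries 1 to 3 and 383 in library 5, but 67 in library 17, which held 103 reads of the 8 genes. Beside the 8 genes the limma threshold was passed by 1 adipose gene (Ucp1, lower) and 1 skeletal muscle gene (Myh4, higher) in KO-TRAMP at 30 weeks, and neither passed without libraries 12 and 18, where 0 of 16889 genes passed, nor without library 10, 12 or 18 alone. No other gene of the lists passed in any of the 4 comparisons, counting further seminal vesicle, chromosome 2, prostate, smooth muscle, vas deferens and epididymis, bladder urothelium and neuroendocrine genes.

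The genes most like the 8 over the 11 libraries were found by the smallest SD of log2((gene reads + 0.5) / summed reads of the 8 genes). Over 16343 genes the median SD was 2.81. Sim1, a bHLH-PAS transcription factor, had the smallest at 0.44, followed by Emx2os (0.52), which is antisense to Emx2, Cwh43 (0.67), Pou3f3 (0.76), a POU transcription factor, and Cdo1 (0.77), cysteine dioxygenase. Elf5 (0.81), an ETS transcription factor of glandular epithelium, Cd52 (0.84), a small surface glycoprotein, Emx2 (0.95), a transcription factor of the developing urogenital tract, and Atp6v1b1 (0.95), a proton pump subunit, were also among the 10. Of these 10 genes, 8 were again among the 10 without libraries 12 and 18. In libraries 4, 8, 16 and 18 Sim1 had 0, 0, 2 and 1 reads and Emx2os 1, 1, 3 and 3. The added 0.5 therefore weighs on their ratios there. The libraries differ in depth and tissue make-up, which all points share.

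Of the genes named from this ranking, Pou3f3 separated the libraries as the summed reads of the 8 genes did. It had 5 to 769 reads in the 11 libraries and 0 in each of the 7 others. The other genes named from the ranking overlapped between the 11 libraries and the 7, as did Svs1, Svs3a and Svs3b among the 8. Sim1 had 170 reads in library 5, 72 in library 13 and at most 1 in the 7 others, and Emx2 had 535 in library 5 and at most 4 in the 7 others. In libraries 4, 8, 16 and 18 Emx2 had only 3, 2, 2 and 5 reads. Cwh43 had 11 reads in library 4 but 63 in library 11, which held 13 reads of the 8 genes. Cdo1 had 328 to 21272 reads in the 11 libraries and 55 to 713 in the 7 others, so this gene was also measured where the 8 genes were nearly absent. Per 1000 reads of the 8 genes Cwh43 had 0.957 to 2.17 in 10 of the libraries and 4.95 in library 8. A steady ratio to the 8 genes is what these genes were chosen for.

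**Figure D5:**
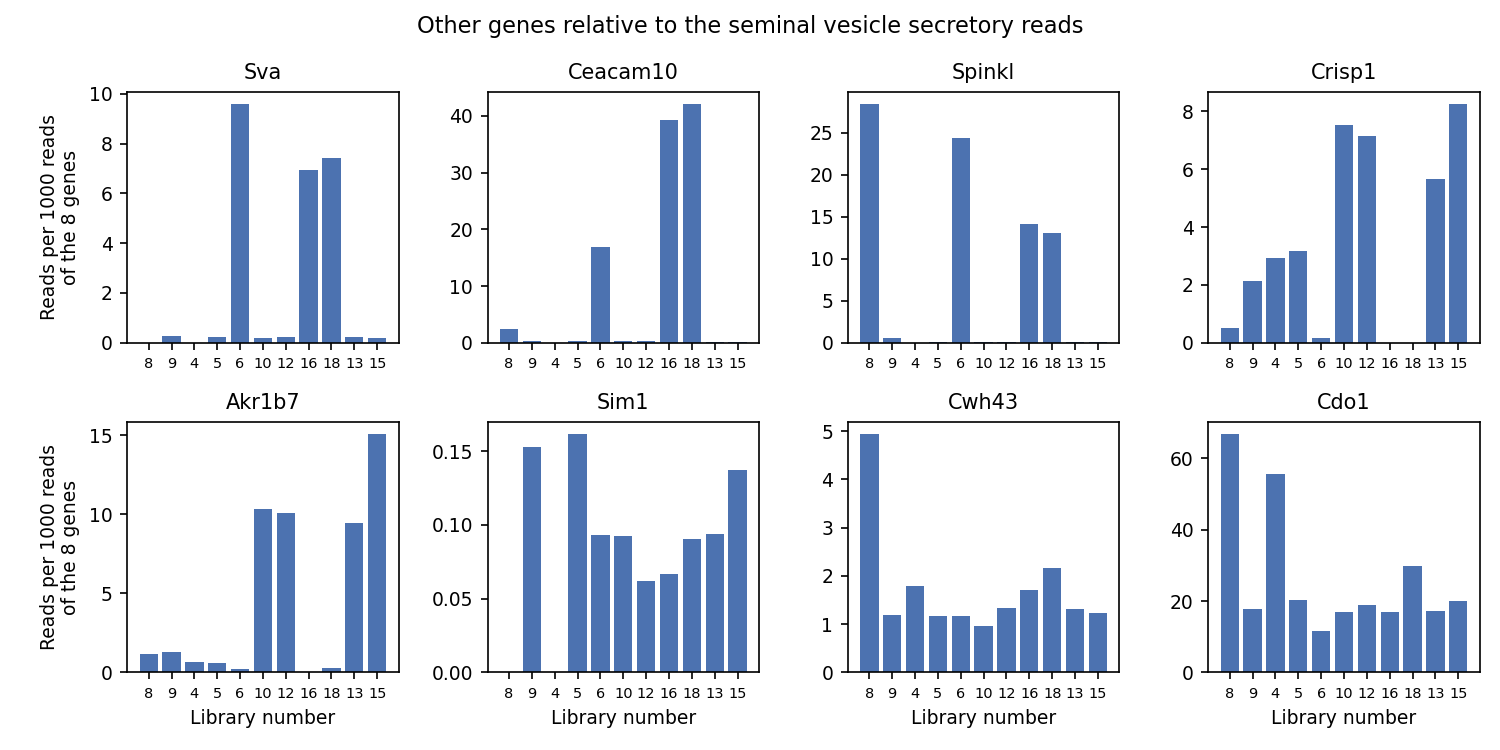
Reads of 8 other genes per 1000 reads of the seminal vesicle secretory genes, in the 11 libraries with at least 1000 such reads (linear axes from 0). Sva, Ceacam10 and Spinkl are high in libraries 6, 16 and 18, and Crisp1 and Akr1b7 are near 0 there. Sim1, Cwh43 and Cdo1 are shown as genes chosen for a steady ratio.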

How the data were processed

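Total RNA of 18 libraries was sequenced by the authors on the Illumina NovaSeq platform. Per the labels and the methods, reads were trimmed with Trim Galore 0.4.1 and cutadapt 1.18, aligned with STAR 2.7.3a to GRCm38.p6, quantified with Salmon on GENCODE M24 using strand, and normalized with DESeq2 1.26. The authors deposited 4 tables of normalized counts, a signal in which the Salmon estimate of a gene is scaled by the size factor of its library, with 6 libraries to a table. Reads were recovered by dividing each column by its smallest value above 0, which gave whole numbers (within 0.0001) for 100% of values. The WT-TRAMP libraries occur in both tables of an age with identical recovered reads for 30.9% to 37.6% of their genes above 0, so values were tested only within a table, and WT-TRAMP reads are from the KO-TRAMP tables. Columns shared by both tables of an age were taken as WT-TRAMP, since headers carry only library numbers. The 4 tables of the authors' own comparisons (fold changes and s-values) were not used.

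Testing was limited to genes whose mean over a table was 10 or more, and used limma 3.58.1 (lmFit, eBayes with trend; R 4.3.3) on log2(normalized count + 1), two-sided, calling genes at an adjusted p (Benjamini-Hochberg) under 0.05. edgeR 4.0.16 and DESeq2 1.42.0 on the recovered reads were alternatives. The scripts were tested on simulated data with known fold changes. P-values measure the spread between libraries, and depth limits precision only for the libraries with few reads. Coordinates and transcript lengths are from GENCODE M21 on GRCm38, an earlier release than the authors used, and promoter windows are from RefSeq on GRCm38.p6, which matched 7 of the 8 genes. The 8 genes and the lists of marker genes were chosen with earlier results of these data known. The lists hold further seminal vesicle genes, chromosome 2 neighbours, prostate, smooth muscle, adipose, vas deferens and epididymis, bladder urothelium, skeletal muscle and neuroendocrine genes. Named genes are the 8 genes, the genes of these lists and the 10 genes most like the 8, of which 1 is not reported here, leaving out clone names and immunoglobulin and T cell receptor segments. Sums of libraries were computed over genes with a mean of at least 300 reads and a read in every library.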

Additional observations from a re-analysis of the deposited data

How the results depend on the processing

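The direction of the fold changes held at 10 weeks and not at 30 weeks. At 10 weeks all 8 genes stayed higher in both mutant lines under each alternative that gave a value: pseudocounts of 0.1 and 10, no minimum mean, edgeR, DESeq2, scaling to reads outside the 8 genes, and each library left out. The 10-week WT-TRAMP libraries held only 24, 20 and 49 reads of the 8 genes. With the wild type this low, the alternatives could hardly turn a sign, so the kept direction is no test. The number of the 8 called rose from 0 to 2 in KO-TRAMP and to 7 in A537T-TRAMP with DESeq2. Leaving out 1 library gave 0 to 1 in KO-TRAMP (1 without library 7) and 0 to 8 in A537T-TRAMP (8 without library 4, 1 without library 5). Without library 9, 4 of the 8 genes fell below the minimum mean in KO-TRAMP and have no value.

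At 30 weeks the count of the 8 called was 0 in both lines under every alternative, while the genes called over the whole table ran from 0 (without library 10, 12 or 18) to 3064 of 16950 (without library 16) in KO-TRAMP and from 0 to 166 of 16261 (DESeq2) in A537T-TRAMP. Leaving out single libraries turned the sign of most genes. In KO-TRAMP the log2 fold changes without 1 library were −0.62 to 4.12 for Svs1, −8.25 to 0.04 for Svs2, −0.71 to 4.45 for Svs3a, −1.11 to 3.80 for Svs3b, −4.12 to 2.58 for Svs4, −6.31 to 1.03 for Svs5, −2.44 to 3.06 for Svs6 and −8.32 to −0.76 for Pate4, lowest without library 11, and Svs4 was 0.39 without libraries 12 and 18, a choice made after seeing the data. In A537T-TRAMP they were −2.89 to 2.04 for Svs1, −4.47 to 5.91 for Svs2, −2.16 to 2.28 for Svs3a, −1.67 to 2.51 for Svs3b, −4.05 to 3.04 for Svs4, −4.03 to 5.06 for Svs5, −3.23 to 2.44 for Svs6 and −3.90 to 5.25 for Pate4, again lowest without library 11. In A537T-TRAMP Svs3a (0.40) was −0.07 with a pseudocount of 10, −0.11 when scaled to reads outside the 8 genes, −0.09 with edgeR and −0.12 with DESeq2, and Svs3b (0.87) was −0.06 with edgeR and −0.08 with DESeq2. Signs turned on leaving out libraries with many reads of the 8 genes as well as those with few, and the cause was not tested.

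With WT-TRAMP reads from the A537T-TRAMP tables the share was 4.25% in library 10 and 1.85% in library 12, outside the counting intervals, and the other WT-TRAMP shares stayed inside theirs. The median percentages of the 8 genes moved by less than their SD over libraries with a minimum of 100 reads, with those tables, without library 5 and without libraries 12 and 18. No paired analysis was possible because the labels name no pairs of mice, and the table headers carry only library numbers. Groups of 3 libraries whose shares differ over 100-fold limit every comparison, and 7 libraries held too few reads for ratios.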

Other observations

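The 7 libraries with few reads of the 8 genes held 350 such reads together. Svs5 took 103 of them (29.4%), Svs4 96 (27.4%), Svs2 88 (25.1%) and Pate4 26 (7.43%), and the other 4 genes took 5 to 14 reads each. These percentages rest on too few reads per library to be placed with either profile of the richer libraries, and reads carried between libraries on the sequencer were not measured.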
